A study of Mus musculus with 22 samples.

Results

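Oxidative phosphorylation in mouse pancreatic endocrine cells was followed through 98 protein-coding genes, 90 of them in the nuclear genome and 8 in the mitochondrial genome. Members were chosen by gene symbol from the mouse annotation, with no measured value used: symbols beginning with Nduf, Uqcr, Atp5 or mt-, the Cox subunit families, the Sdh genes and Cycs. The annotation held 108 such genes, and the 98 with an identifier in both count tables were kept, out of 24296 genes in both tables. The nuclear members comprised 36 subunits of complex I, 4 of complex II, 8 of complex III, 16 of complex IV, 16 of complex V, 9 assembly factors and the electron carrier cytochrome c (Cycs). The mitochondrial members were mt-Nd1, mt-Nd2, mt-Nd3, mt-Nd4, mt-Nd5 and mt-Nd6 of complex I, mt-Cytb of complex III and mt-Co1 of complex IV. The genes mt-Co2, mt-Co3, mt-Atp6, mt-Atp8, mt-Nd4l, Cox4i2, Cox8b, Cox8c and Ndufa4l2, as well as a second Atp5o identifier, were not in both tables and were not analysed here.

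RNA was sequenced from pools of 100 tdTomato+ cells sorted from the pancreas at an embryonic age, E14.5, and at postnatal day 9 (P9), in 4 groups and 22 libraries. Isl1CKO libraries (n = 5 at E14.5, n = 6 at P9) came from Isl1 f/f; Neurod1-Cre; Ai14 mice, in which Cre under Neurod1 removes the transcription factor Isl1 from the endocrine lineage and switches on the tdTomato reporter. Control libraries (n = 6 at E14.5, n = 5 at P9) came from Isl1 f/+; Neurod1-Cre; Ai14 littermates of both sexes on a C57BL/6 background, so the controls also carried Cre, the reporter and 1 floxed Isl1 allele, although their labels read WT. P9 pancreata (P9 to P10 in the protocol) were perfused with collagenase before trypsin while E14.5 pancreata received trypsin only, and each age has its own count table, so that age, dissociation and table cannot be told apart. Replicates are separate libraries; nothing in the labels says how many animals each pool held, and p-values measure the spread between libraries.

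Libraries held 8477480 to 13581000 counts. Isl1 itself, summed over all its exons, stood at 784 to 1043 CPM (counts scaled to library size by TMM factors) in E14.5 controls and 550 to 713 in E14.5 Isl1CKO libraries. At P9 it was at 359 to 530 in controls and 449 to 1241 in the libraries labelled Isl1CKO (log2 fold change 1.08 ± 0.21 SE, edgeR adjusted p = 0.00813). The whole-gene count was thus lower in Isl1CKO at E14.5 and higher at P9. A count over the whole gene does not show whether the floxed exons were present, so it does not check the deletion, and Isl1CKO and control name below what the labels say. The 8 hormone genes (Ins1, Ins2, Gcg, Sst, Ppy, Pyy, Ghrl, Iapp) took 51.1 to 56.4% of all counts in P9 controls, 13.98 to 30.2% in P9 Isl1CKO, 2.44 to 6.17% in E14.5 controls and 0.710 to 2.49% in E14.5 Isl1CKO. All 11 endocrine markers were present in every group, summed to 155342 CPM or more in each P9 library and 19754 or more in each E14.5 library. Hepatoblast markers (7 genes) summed to 18.3 to 53.3 CPM in E14.5 controls against 45.3 to 194 in E14.5 Isl1CKO, and acinar markers (7 genes) reached 855 CPM in 1 P9 control; the part of other cell types in the results was not tested unless stated.

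Oxidative phosphorylation couples electron transport to ATP synthesis in the inner mitochondrial membrane. Complex I (NADH dehydrogenase) and complex II (succinate dehydrogenase) pass electrons to coenzyme Q, complex III passes them to cytochrome c, complex IV (cytochrome c oxidase) passes them to oxygen, and the proton gradient so formed drives complex V, the ATP synthase. Complexes I, III, IV and V combine subunits made in the mitochondrion with subunits made from nuclear genes, complex II is wholly nuclear, and in β cells ATP from this chain closes potassium channels and so triggers insulin release.

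Promoters of nuclear subunit genes are known for sites of NRF1, ETS factors (including GABP, also called NRF2) and YY1, and 4 promoters are shown here for genes whose levels differed with age in opposite directions. Each is 300 bases of RefSeq sequence on GRCm38.p6, from 250 before to 50 after the annotated start, written 5′ to 3′ on the gene's strand, with matches to the motifs searched on both strands in capitals. The motifs were GCGCA followed by any base and GCGC (NRF1), CCGGAAG (ETS) and ATGGCGG (YY1), and none of the 3 contains another. Ndufa1 (chrX:37191189-37191488, minus strand) and Atp5k (chr5:108434350-108434649, minus strand) had higher levels at P9 than at E14.5 in controls, whereas Atp5b (chr10:128083057-128083356, plus strand) and Cox6a1 (chr5:115348909-115349208, minus strand) had lower levels.
Ndufa1: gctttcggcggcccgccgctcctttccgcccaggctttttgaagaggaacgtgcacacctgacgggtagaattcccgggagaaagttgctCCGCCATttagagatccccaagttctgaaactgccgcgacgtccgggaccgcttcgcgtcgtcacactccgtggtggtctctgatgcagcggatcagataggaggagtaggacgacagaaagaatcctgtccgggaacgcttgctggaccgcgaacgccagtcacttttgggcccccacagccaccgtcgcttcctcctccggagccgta
Atp5k: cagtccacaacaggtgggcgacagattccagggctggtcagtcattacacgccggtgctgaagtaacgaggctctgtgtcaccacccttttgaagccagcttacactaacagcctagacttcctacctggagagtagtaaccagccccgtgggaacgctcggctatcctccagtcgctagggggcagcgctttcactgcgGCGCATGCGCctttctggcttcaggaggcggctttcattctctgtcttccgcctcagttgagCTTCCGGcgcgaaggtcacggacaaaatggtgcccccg
Atp5b: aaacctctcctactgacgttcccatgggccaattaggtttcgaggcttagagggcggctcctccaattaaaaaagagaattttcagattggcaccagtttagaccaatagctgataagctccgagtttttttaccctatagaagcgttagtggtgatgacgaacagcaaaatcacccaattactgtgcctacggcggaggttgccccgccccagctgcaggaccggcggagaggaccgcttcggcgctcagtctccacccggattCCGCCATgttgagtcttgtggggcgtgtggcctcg
Cox6a1: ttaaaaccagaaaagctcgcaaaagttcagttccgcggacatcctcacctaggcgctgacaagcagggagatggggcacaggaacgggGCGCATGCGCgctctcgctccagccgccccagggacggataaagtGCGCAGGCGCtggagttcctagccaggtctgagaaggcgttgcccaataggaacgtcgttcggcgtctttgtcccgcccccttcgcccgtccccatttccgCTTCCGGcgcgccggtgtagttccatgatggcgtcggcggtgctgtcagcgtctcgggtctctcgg

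Of the 90 nuclear members 76 matched a promoter entry. The NRF1 motif stood in 19 of the 76 (25%) against 5.19% of 27025 genes with an entry, the ETS motif in 18 (23.7% against 9.93%) and the YY1 motif in 12 (15.8% against 4.69%). The members' windows held a median of 20 CpG dinucleotides against 7 over all genes, a property that GC-rich motifs share. Among members with a promoter, the NRF1 motif was found in 5 of 23 whose level was higher at P9 in controls, 3 of 10 whose level was lower and 11 of 43 not called. The motif letters thus stood in promoters of genes of either direction, as in the sequences above, where Cox6a1 holds 2 NRF1 matches and 1 ETS match, Atp5k 1 of each, and Ndufa1 and Atp5b 1 YY1 match each.

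The ratio of nuclear to mitochondrial counts of the members differed between the ages, whereas the genotypes overlapped in it within each age. Its mitochondrial side covers the 8 measured genes only, without mt-Co2, mt-Co3, mt-Atp6, mt-Atp8 and mt-Nd4l. Reads that align to several places were not counted. How many each genome lost was not tested, so the size of the shares and of the ratio is limited by this. Nuclear members summed to 2.17 ± 0.089% of all counts in E14.5 controls (SD, n = 6), 2.29 ± 0.034% in E14.5 Isl1CKO (n = 5), 1.06 ± 0.046% in P9 controls (n = 5) and 1.86 ± 0.199% in P9 Isl1CKO (n = 6). Mitochondrial members summed to 1.67 ± 0.094%, 1.60 ± 0.139%, 1.74 ± 0.176% and 2.82 ± 0.310% in the same groups. Shares of all counts move with the hormone transcripts: with the 8 hormone genes left out of the total, nuclear members took 2.26%, 2.33%, 2.32% and 2.40%, and mitochondrial members 1.74%, 1.63%, 3.81% and 3.62%. In pools of cells, fewer cells of a type and less RNA per cell cannot be told apart.

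The ratio of nuclear to mitochondrial counts needs no scaling between libraries. It ran from 1.23 to 1.36 in E14.5 controls with a median of 1.30, and was 1.36, 1.31, 1.37, 1.60 and 1.55 in the 5 E14.5 Isl1CKO libraries. In the P9 controls it was 0.623, 0.610, 0.508, 0.668 and 0.646, and in P9 Isl1CKO it ran from 0.498 to 0.775 with a median of 0.665. Every P9 library lay below every E14.5 library, and within each age the genotypes overlapped. The mean was 1.30 ± 0.050 in E14.5 controls and 0.611 ± 0.062 in P9 controls, and 1.44 ± 0.127 and 0.668 ± 0.099 in Isl1CKO. As a ratio summed over members it was given no test.

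Complexes I, III and IV, for which members of both genomes were measured, showed the same order of ages. The mitochondrial side was mt-Cytb alone in complex III and mt-Co1 alone in complex IV. Within complex I the ratio was 1.34 ± 0.096 in E14.5 controls and 0.695 ± 0.090 in P9 controls, within complex III 0.287 ± 0.010 and 0.151 ± 0.013, and within complex IV 2.01 ± 0.152 and 0.759 ± 0.080. In Isl1CKO the corresponding values were 1.38 and 0.807, 0.323 and 0.146, and 2.26 and 0.931. Leaving out mt-Cytb, which alone held 52.9% of mitochondrial counts in E14.5 controls and 47.6% in P9 controls, gave ratios of 2.76 and 1.17 in controls. Keeping only genes with under 20% of their sequence shared with transcripts of other genes gave 1.40 and 0.686.

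**Figure D1:**
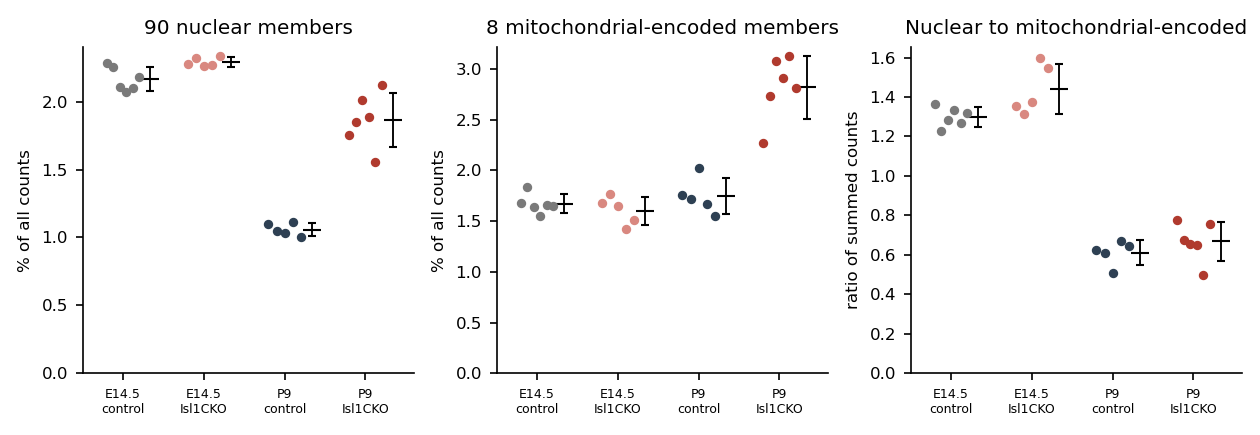
Shares of all counts taken by nuclear and by mitochondrial members (percent) and the ratio of nuclear to mitochondrial counts in each of the 22 libraries, as dots by group, with mean ± SD beside them. The 11 P9 libraries have ratios of 0.498 to 0.775, below the 1.23 to 1.60 of the 11 E14.5 libraries, and the ratios of the genotypes overlap within each age; the shares of all counts do not overlap between genotypes at P9, where hormone shares differ too.

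The most abundant transcript of the system per kilobase was mitochondrial in every group, but not all mitochondrial genes lay above the nuclear ones. Per kilobase of exon, mt-Cytb, the mitochondrial subunit of complex III (chrM:14145-15288, plus strand), stood at 5833 ± 416 CPM in E14.5 controls and 12356 ± 775 in P9 controls. The highest nuclear member of each complex in P9 controls, per kilobase, was Ndufa1 of complex I at 1095 CPM, Uqcr11 of complex III at 654, Cox8a of complex IV at 478, Atp5k of complex V at 284 and Sdhd of complex II at 121. Ndufaf8, a complex I assembly factor, was at 82.0 and Cycs at 39.5. Of the 8 mitochondrial genes 7 lay above Ndufa1 in P9 controls, the nearest being mt-Nd5 at 1244, and mt-Nd3 lay below at 15.2. The other groups differed in this. In E14.5 controls Cox6a1, at 631, lay above the median of the mitochondrial complex I genes, at 585. In P9 Isl1CKO Ndufa1, at 1636, lay above their median of 1573.

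Levels of 7 of the 8 mitochondrial genes were higher at P9 than at E14.5 in controls by edgeR's quasi-likelihood test over all genes, where 15.8% of the 17265 genes tested were called higher and 15.2% lower. The mitochondrial medians were 1.42 on the log2 scale against -0.04 for all genes tested. For mt-Nd6 the E14.5 controls ran from 286 to 363 CPM with a median of 317, and the P9 controls were at 1165, 1288, 1567, 1241 and 1225. No P9 library of this gene overlapped any E14.5 library, and the log2 difference was 2.02 ± 0.11 (SE, edgeR adjusted p = 5.01e-12). The gene lies on the strand opposite to the other 7 (chrM:13552-14070, minus strand), and its share of mitochondrial counts was 2.37 to 2.65% in E14.5 controls against 4.07 to 4.88% in P9 controls. Reads were counted without strand, so any RNA of the opposite strand across mt-Nd6 would be counted with it. The annotated exons of mt-Nd5 overlap it by 14 bases. The part of such reads in the mt-Nd6 levels was not tested.

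The other mitochondrial genes differed by less. The catalytic subunit of complex IV, mt-Co1, ran from 1474 to 1700 CPM in E14.5 controls with a median of 1499, and stood at 4196, 4274, 4621, 4252 and 3919 in P9 controls (log2 difference 1.48 ± 0.10, edgeR adjusted p = 7.03e-11). For mt-Cytb the range was 6098 to 7335 with a median of 6599 at E14.5, and the P9 controls were at 13913, 15357, 14307, 14216 and 12883 (log2 difference 1.08 ± 0.08, edgeR adjusted p = 1.05e-09). Among the membrane subunits of complex I the log2 differences were 1.62 for mt-Nd4, 1.49 for mt-Nd2, 1.37 for mt-Nd5 and 0.97 for mt-Nd1. All of these groups were free of overlap.

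The exception, mt-Nd3, was at 3.44 to 7.51 CPM in E14.5 controls with a median of 6.27, and at 4.61, 4.52, 7.85, 5.06 and 4.46 in P9 controls (log2 difference -0.18 ± 0.33, edgeR adjusted p = 0.729). Its low counts have a limit: 98.1% of its 31-base windows also occur in transcripts of other genes, and reads that align to several places were not counted. The same share was 63.9% for mt-Co1 and 62.8% for mt-Nd4, 16.8% for mt-Nd5, 13.5% for mt-Nd2, 7.36% for mt-Nd6, 6.55% for mt-Cytb and 0 for mt-Nd1, the others being mostly nuclear pseudogenes of mitochondrial origin. How many reads each gene lost in this way was not tested, so the order of levels between these genes is limited by it.

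In Isl1CKO the same 7 mitochondrial genes were higher at P9, where 16.0% of genes tested were called higher and 13.7% lower. The median over the 8 genes was 1.42, with 1.94 ± 0.12 for mt-Nd6, 1.55 ± 0.10 for mt-Co1 and 1.35 ± 0.09 for mt-Cytb. With scaling to total counts, in which the P9 hormone transcripts enter the denominator, the median of all genes moved to -1.21 in controls and -0.50 in Isl1CKO, and the mitochondrial median to 0.25 and 0.86; mt-Nd1 and mt-Cytb then fell below 0 in controls.

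**Figure D2:**
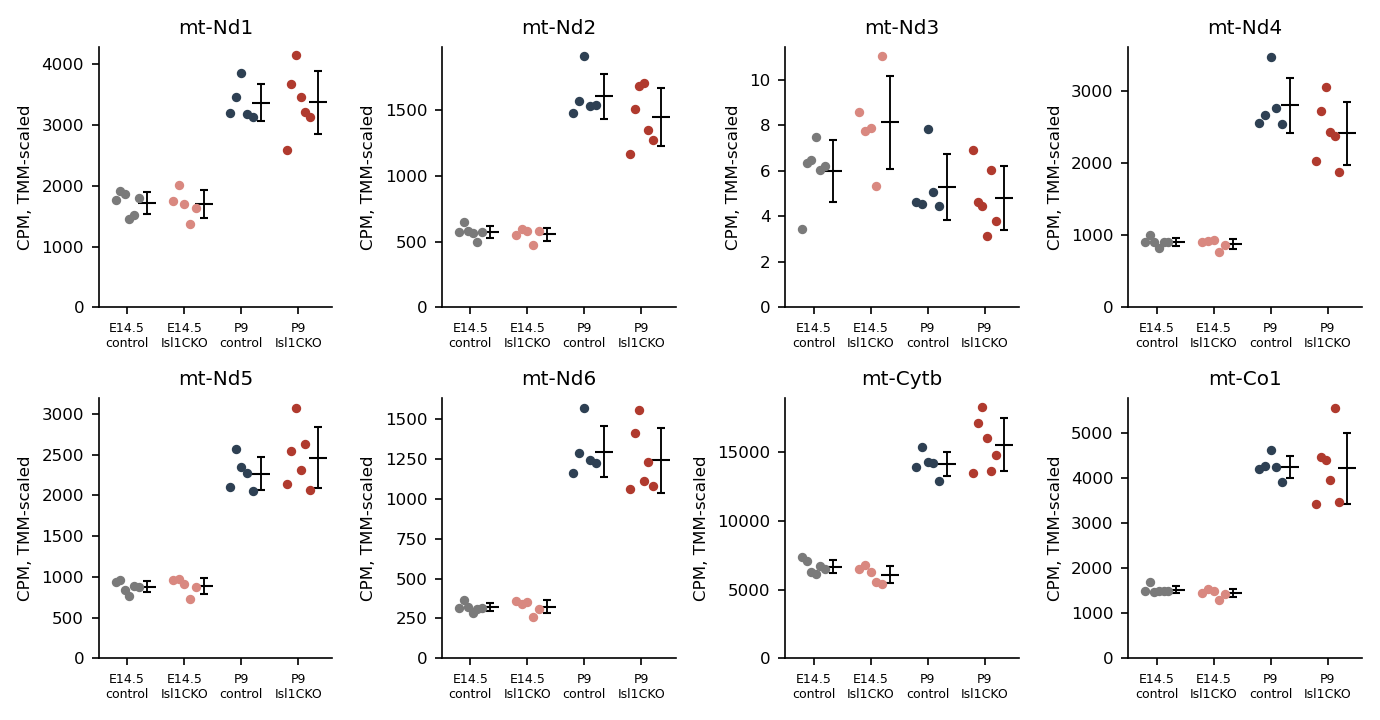
Level of each of the 8 mitochondrial-encoded genes (CPM of the TMM-scaled library, linear axes from 0) in each library by group, with mean ± SD. The P9 dots lie above the E14.5 dots in all genes but mt-Nd3, which stays between 3.14 and 11.1 CPM, and control and Isl1CKO dots overlap.

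The nuclear members did not move as a block with age: in controls 54 log2 differences were above 0 and 36 below. There, 28 of 90 were called higher and 13 lower at P9, where 15.8% of genes tested were higher and 15.2% lower. In Isl1CKO 34 were higher and 10 lower, where 16.0% and 13.7% were. Thus the lower counts lay near the share over all genes. These shares apply also to the counts by complex below. The medians were 0.09 in controls and 0.26 in Isl1CKO, against -0.04 and 0.05 for all genes. In controls every P9 library lay above every E14.5 library for 26 of the 98 members (19 nuclear, 7 mitochondrial), against 9.85% of genes tested, and below for 9 (all nuclear), against 11.1%. Under settings that take in all 24296 genes the nuclear median in controls was not above that of all genes, at 0.09 against 0.14 by DESeq2 and -0.04 against 0.02 with no filter. Markers of other cells also differed with age: of 5 acinar markers tested 4 were called higher at P9 in controls and 3 in Isl1CKO (sums of 8.36 to 208 CPM in E14.5 controls and 34.8 to 855 in P9 controls), of 4 mesenchyme markers 1 and 2 higher, of 7 hepatoblast markers 3 and 2 lower, and of 5 macrophage markers 0 and 2 lower. Their part in the age differences was not tested. With scaling to total counts, which moves the median of all genes as given above, the nuclear median became -1.09 in controls, with 2 called higher and 79 lower, so directions of nuclear genes are relative to the bulk of genes under TMM scaling.

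Complex I held most of the nuclear genes with higher levels at P9. In controls 16 of its 36 nuclear subunits were called higher and 2 lower, and in Isl1CKO 20 higher and 0 lower. The calls lay in the accessory subunits, which surround the enzyme's catalytic core: 15 of 29 were higher and 1 lower, with a median of 0.28, against 1 higher and 1 lower among the 7 core subunits encoded in the nucleus, with a median of 0.08. Ndufa1, a small accessory subunit of the membrane arm, ran from 143 to 192 CPM in E14.5 controls with a median of 155, and was at 428, 472, 433, 547 and 414 in P9 controls. Its groups lay far apart, with a log2 difference of 1.50 ± 0.16 in controls (95% interval 1.17 to 1.82, edgeR adjusted p = 1.63e-07) and 1.96 ± 0.17 in Isl1CKO. Ndufc1 and Ndufa12, accessory subunits chosen after their values were seen, differed by 1.05 and 0.96 in controls. The 2 called lower included Ndufs4, a subunit of the peripheral arm also chosen after its values were seen, at -0.51.

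Complex V showed the reverse balance, with 2 of 16 members higher and 6 lower in controls. All 5 subunits of F1, the catalytic head that makes ATP, had log2 differences below 0 with a median of -0.51, and 3 were called: Atp5a1 and Atp5b, which form the catalytic ring, and Atp5d of the central stalk. Atp5b ran from 614 to 678 CPM in E14.5 controls with a median of 649, and stood at 387, 477, 320, 430 and 385 in P9 controls. All P9 controls were lower, by -0.69 ± 0.09 on the log2 scale (edgeR adjusted p = 5.46e-06), and in Isl1CKO the difference was -0.79 ± 0.09. Atp5a1 differed by -0.51 ± 0.10 and Atp5d by -0.996 ± 0.17 in controls. Outside F1, where 2 of 11 were higher and 3 lower, Atp5k, a small membrane subunit tied to dimers of the enzyme, went from a range of 74.9 to 105 to one of 164 to 181 CPM (log2 difference 1.01 ± 0.22, edgeR adjusted p = 0.00101).

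Complexes III and IV were mixed. In complex III 3 of 8 nuclear members were higher and 1 lower in controls. The lower one was Uqcrfs1, the Rieske iron-sulphur protein of the catalytic core, which ran from 254 to 295 CPM at E14.5 and from 142 to 180 at P9 (log2 difference -0.73 ± 0.09, edgeR adjusted p = 2.28e-06), while the small subunit Uqcr11 ran from 256 to 350 and from 348 to 480 (log2 difference 0.50 ± 0.11). In complex IV 5 of 16 were higher and 3 lower. In complex II none of the 4 was called in controls: the log2 differences were -0.24 ± 0.16 for the flavoprotein Sdha, 0.07 ± 0.14 for the iron-sulphur protein Sdhb, and -0.09 ± 0.13 and -0.20 ± 0.17 for the membrane anchors Sdhc and Sdhd. In Isl1CKO Sdhc was lower by -0.53 ± 0.13 (edgeR adjusted p = 0.00283). Cycs was higher in both genotypes, by 0.55 ± 0.19 and 0.91 ± 0.19; the call in controls was lost in 6 of 22 fits that left out 1 library (E14.5 control 3, 4, 5 or 6, P9 control 1 or 4; adjusted p 0.00386 to 0.114 over the 22), with no filter (0.108) and with hormone genes left out of the total (0.0686). Of 9 assembly factors 1 was higher (Ndufaf8, 0.67 ± 0.14) and 1 lower in controls.

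**Figure D3:**
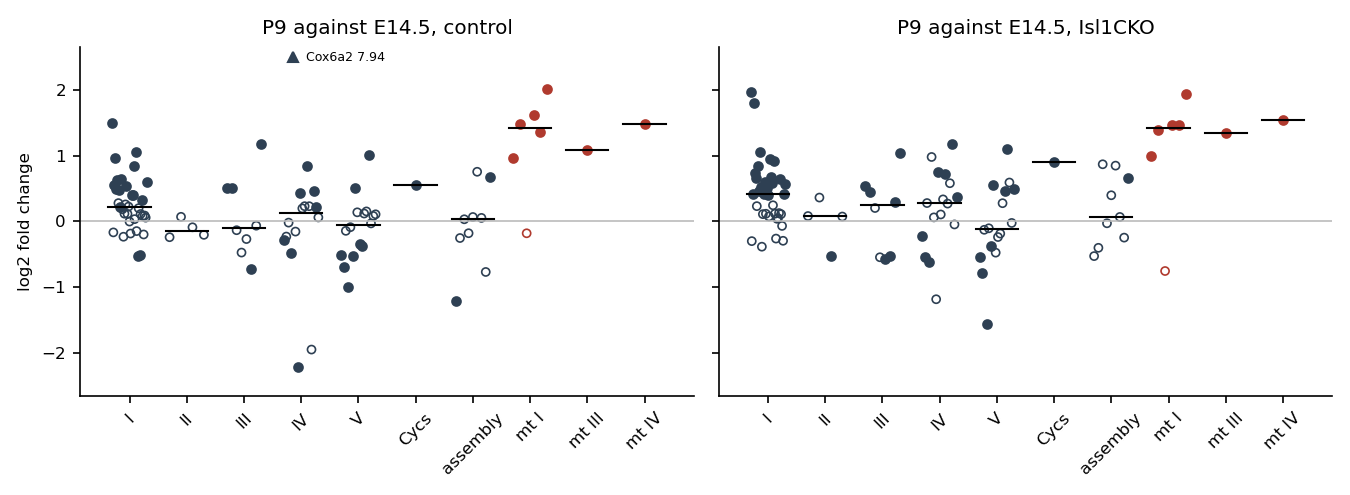
Log2 difference between P9 and E14.5 for each member, by complex and genome, in controls and in Isl1CKO; filled symbols are called at an edgeR adjusted p under 0.05, open ones are not, and the black bar is the median of each set; 1 member is left out of the plot. Mitochondrial genes (red) lie from 0.97 to 2.02 in controls, except mt-Nd3, complex I accessory genes spread upwards, and the F1 genes of complex V lie below 0; under total-count scaling the whole control panel shifts down, with the median of all genes at -1.21.

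Small transcripts and long ones were not spread evenly over the calls. Nuclear members called higher in controls had a median of 1191 exon bases, those called lower 2039 and the 49 not called 1789. Over all protein-coding genes, many of them longer, these medians stood in the reverse order, at 4936.5 for those called higher and 4164.5 for those called lower. Over shorter genes the order was that of the members. The median log2 difference in controls was 0.09 for protein-coding genes of 0 to 1000 exon bases and -0.10 for 1000 to 2000. It was -0.16 for 2000 to 4000 and -0.0008 above 4000. Whether length has a part in the members' calls was not tested.

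Several subunits exist as paralogous isoforms, and a few of these differed with age. Cox6a1, the isoform of complex IV found in most tissues, ran from 407 to 482 CPM in E14.5 controls with a median of 446, and was at 388, 380, 227, 278 and 310 in P9 controls. All P9 controls were below all E14.5 controls (log2 difference -0.48 ± 0.12, edgeR adjusted p = 0.00336; -0.61 ± 0.12 in Isl1CKO). Cox6b2, known as the testis isoform of its subunit, ran from 6.40 to 11.2 CPM at E14.5 and was at 2.24, 1.66, 0.275, 0.949 and 3.80 in P9 controls (log2 difference -2.21 ± 0.50, edgeR adjusted p = 0.00166), whereas Cox6b1 ran from 306 to 400 and from 268 to 321 CPM and was not called. Cox7a2l, which takes part in joining complexes III and IV, went from a range of 102 to 130 to one of 193 to 220 CPM (log2 difference 0.84 ± 0.16, edgeR adjusted p = 0.000388), while Cox7a2 differed by 0.23 ± 0.14 and the muscle isoform Cox7a1, at 7.99 CPM or less, by 0.20 ± 0.52. Of the 3 genes for the same c-ring subunit of complex V, Atp5g1 differed by 0.51 ± 0.15 (called), Atp5g3 by -0.34 ± 0.11 (called) and Atp5g2 by 0.14 ± 0.18. Cox4i1 differed by -0.28 ± 0.08 (called), Cox8a by 0.22 ± 0.08 (called), and Ndufa4 and Cox7b by 0.06 ± 0.13 and 0.23 ± 0.16. The Cox8a call was lost in 12 of 22 fits that left out 1 library (E14.5 Isl1CKO 1, 2, 3 or 5, E14.5 control 1, 3, 4 or 5, P9 control 1, 2, 3 or 4; adjusted p 0.0316 to 0.105 over the 22), with no filter (0.436) and with hormone genes left out of the total (0.294), and the Atp5g3 call in 3 (E14.5 control 2, P9 control 2 or 5; up to 0.0564). Cox7b2 was at 2.83 CPM or less in every library.

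Within an age, few members differed between Isl1CKO and control. At E14.5, 1 of 88 nuclear members tested was called higher and 0 lower, where 0.602% of the 15960 genes tested were called higher and 0.827% lower; 0 of 8 mitochondrial members were called in either direction. At an unadjusted p under 0.05, 8 nuclear members were higher and 0 lower and no mitochondrial member passed, against 878 higher and 949 lower of the 15960 genes. DESeq2 called 2 nuclear members higher, 0 lower and 0 mitochondrial ones, against 298 and 364 of 27124 genes. The medians were 0.06 for nuclear members, -0.03 for mitochondrial members and -0.0045 for all genes. The mitochondrial estimates lay between -0.13 (mt-Cytb, 95% interval -0.27 to 0.01) and 0.44 (mt-Nd3, -0.13 to 1.00).

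The count of 1 at E14.5 was not stable to the choice of libraries. It became 0 in 7 of 11 fits that left out 1 library, namely control 1, 3, 4 or 6 or Isl1CKO 2, 4 or 5, and also without Isl1CKO 3, 4 and 5 together. The hepatoblast marker sums given above overlapped between the groups but reached higher values in Isl1CKO, where 2 of the 7 markers were called higher, and 7 macrophage markers summed to 27.2 to 81.7 CPM in Isl1CKO against 27.9 to 43.0 in controls; their part was not tested.

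At P9, 0 of 89 nuclear members tested were called higher and 1 lower, where 2.66% of the 13964 genes tested were called higher and 2.14% lower; 0 of 8 mitochondrial members were called. At an unadjusted p under 0.05, 17 nuclear members were higher and 4 lower, with 0 mitochondrial ones, against 1317 higher and 1116 lower of the 13964 genes. DESeq2 called 6 higher (Ndufa6, Ndufb6, Ndufs4, Uqcrh, Cox7c and Atp5l) and 2 lower (Cox6a2 and Cox8a), against 924 and 771 of 27504 genes. The nuclear median was 0.16, with 66 of 89 estimates above 0, against 0.02 for all genes and -0.04 for mitochondrial members. Of all 13964 genes, 7218 had estimates above 0. By complex the nuclear medians were 0.13 in I, 0.33 in II, 0.03 in III, 0.15 in IV and 0.17 in V. With the 8 hormone genes left out of the total, 51 nuclear estimates were above 0 and 38 below. The nuclear median was then 0.04, against -0.09 for all genes and -0.16 for mitochondrial members.

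The number of members called at P9 depended on 1 library. Isl1CKO 5 had the lowest level of its group in 60 of 98 members. Libraries of this kind were found in other groups too: P9 control 3 was lowest in 40 and E14.5 control 1 highest in 51. In its own group Isl1CKO 3 was highest in 45. The nuclear to mitochondrial ratio of Isl1CKO 5, at 0.498, was the lowest of all libraries, next to 0.508 in P9 control 3. Without Isl1CKO 5, 9 nuclear members were called higher: Ndufa1, Ndufa12, Ndufb6, Ndufs4 and Ndufs6 of complex I, Ndufa4, Cox5b and Cox7c of complex IV and Atp5j2 of complex V. In that fit 682 of 13584 genes were called in either direction. The nuclear median was 0.23, against 0.01 for all genes. Cox7c and Uqcrh, described next, were chosen after their values were seen. Cox7c, a small subunit of complex IV, was at 310, 274, 291, 391 and 332 CPM in controls and ran from 275 to 850 in Isl1CKO, the lowest being library 5 (log2 difference 0.76 ± 0.22 with all libraries, edgeR adjusted p = 0.0664). Uqcrh, the hinge protein of complex III, was at 191, 251, 203, 258 and 221 CPM in controls and ran from 273 to 296 in Isl1CKO, with no overlap (log2 difference 0.36 ± 0.12, edgeR adjusted p = 0.102; DESeq2 0.0105). Cox8a, by contrast, was at 303, 316, 289, 293 and 278 CPM in controls and ran from 232 to 274 in Isl1CKO, again with no overlap and not called (log2 difference -0.24 ± 0.11, edgeR adjusted p = 0.262). Of the uncalled members, 2 lay above controls without overlap, Uqcrh and Atp5l, and 1 below. The share of all genes without overlap was not computed at P9. With scaling to total counts the median of all genes at P9 moved to 0.68, the nuclear median to 0.81 with 72 members called higher, and the mitochondrial median to 0.61 with 7 called higher, in libraries whose hormone share was lower than in controls.

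**Figure D4:**
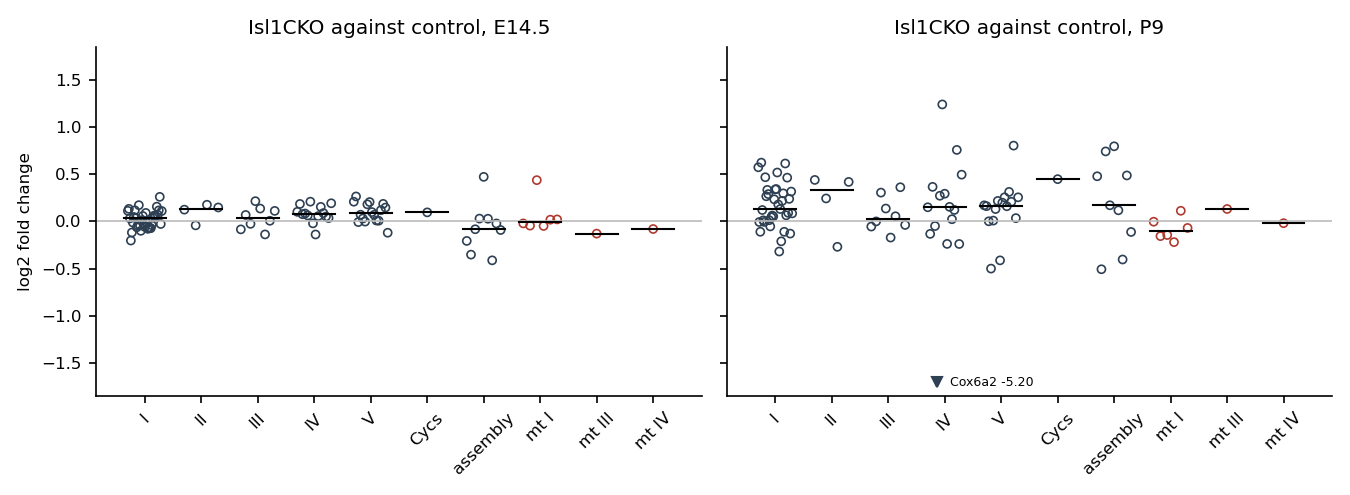
Log2 difference between Isl1CKO and control for each member by complex, at E14.5 and at P9, with filled symbols for called genes, open symbols for the others, a black bar at the median and a triangle for Cox6a2 (-5.20), which lies outside the axis. Of the members drawn (1 is left out of the plot) Cox6a2 at P9 is the only one called, and the mitochondrial genes (red) lie around 0 at both ages; under total-count scaling the P9 panel shifts up, with the median of all genes at 0.68.

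The gene called lower at P9 was Cox6a2, the heart and skeletal muscle isoform of a complex IV subunit (chr7:128205435-128206387, minus strand). The P9 controls held 14, 66, 85, 84 and 9 counts, or 1.96, 9.95, 11.7, 13.3 and 1.18 CPM, and the P9 Isl1CKO libraries 10, 1, 0, 0, 0 and 0 counts, at most 1.05 CPM. Controls 2, 3 and 4 stood well above controls 1 and 5, which were close to Isl1CKO 1, although the groups did not overlap. The ratio of summed levels, control to Isl1CKO, was 38.02 (95% interval 20.9 to 77.1, counting error only) from 258 and 11 counts, and the fitted log2 difference was -5.20 ± 1.20 (95% interval -7.76 to -2.63, edgeR adjusted p = 0.0207; DESeq2 0.000297). The call was lost without control 3 (adjusted p = 0.0502) or control 4 (0.0555), and the gene was not tested without Isl1CKO 1, since it then failed the filter on low counts. At E14.5 the gene had 2 counts over the 6 controls and 8 over the 5 Isl1CKO libraries, too few for a test there.

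In the joint model of all 22 libraries, Cox6a2 was the member whose Isl1CKO effect differed between the ages, by -6.96 ± 1.78 on the log2 scale (95% interval -10.64 to -3.28, edgeR adjusted p = 0.0388; DESeq2 0.0100), where 1.23% of genes were called with a higher and 0.851% with a lower effect at P9. This call rests on few counts at E14.5 and was lost in 11 of 21 fits that left out 1 library (E14.5 Isl1CKO 1 or 5, E14.5 control 1, 4, 5 or 6, P9 Isl1CKO 4 or 6, P9 control 2, 3 or 4; adjusted p 0.0336 to 0.255 over the 21). In controls, Cox6a2 was higher at P9 than at E14.5 by a ratio of 353 (95% interval 96.8 to 2932, counting error only). Muscle and brown adipose markers (5 genes) summed to 1.20 to 3.47 CPM in E14.5 controls, 1.63 to 5.45 in E14.5 Isl1CKO, 2.41 to 10.1 in P9 controls and 2.14 to 7.66 in P9 Isl1CKO. The 1 marker of this list with enough counts for a test was called higher at P9 in controls and not in Isl1CKO, and was not called between genotypes; its part in the Cox6a2 values was not tested. Of the exon bases of Cox6a2, 10.3% lie under the antisense gene Itgad. Among the other 97 members none was called in this test. At an unadjusted p under 0.05, 10 members of 98 were higher and 6, with Cox6a2, lower, near the 1505 and 1104 of 17265 genes. DESeq2 called Ndufa12 and Uqcrh higher and Cox6a2 and Atp5g2 lower, against 552 and 415 of 24296 genes.

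**Figure D5:**
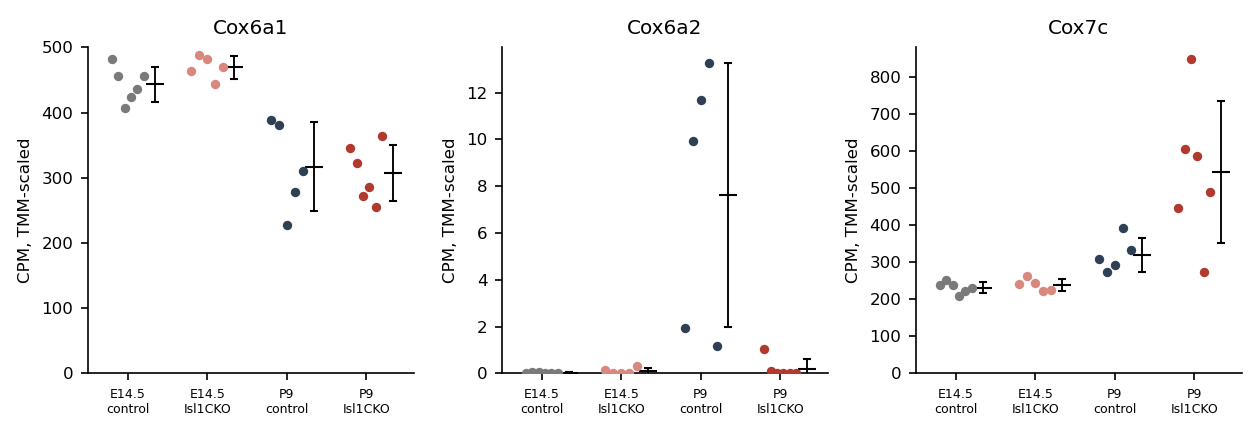
Levels of single members (CPM of the TMM-scaled library) in each library by group, with mean ± SD. Cox6a1 lies lower at P9 than at E14.5, Cox6a2 is at 1.18 to 13.3 CPM in P9 controls and at most 1.05 elsewhere, and Cox7c spreads from 275 to 850 CPM in P9 Isl1CKO.

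Genes that serve the chain without being members were read from 5 lists. Among 25 tested genes for expression of mitochondrial DNA, 0 were higher and 3 lower at P9 in controls, with a median of -0.27: Lrpprc, which stabilizes mitochondrial mRNA (-1.01 ± 0.17), Tefm, a transcription elongation factor (-0.79 ± 0.26), and Trmt10c, part of mitochondrial RNase P (-0.78 ± 0.22). Tfam, which packages mitochondrial DNA, and Polrmt, the mitochondrial RNA polymerase, differed by 0.13 ± 0.18 and -0.23 ± 0.47 and were not called. In Isl1CKO 1 gene of the list was higher and 1 lower with age. The part of these genes in the levels of the mitochondrial transcripts was not tested. Of 11 carriers and calcium channel genes tested, 2 were higher in controls, the uncoupling protein Ucp2 (1.46 ± 0.13) and the phosphate carrier Slc25a3 (0.38 ± 0.09), and 5 lower, with the ADP/ATP carriers Slc25a5 (-1.31 ± 0.16) and Slc25a4 (-0.75 ± 0.12) among them. Of 13 regulators of mitochondrial biogenesis tested, 2 were higher in controls, the coactivator Ppargc1b (4.13 ± 1.24) and the transcription factor Yy1 (0.90 ± 0.19), and 2 lower, the GABP subunit Gabpb1 (-1.06 ± 0.24) and the deacetylase Sirt3 (-0.82 ± 0.31). Of 46 further assembly factors and subunits, 7 were higher and 10 lower, with Cyc1, the cytochrome c1 of complex III, at -1.04 ± 0.20, and of 13 coenzyme Q genes 4 were higher and 2 lower. The background of 15.8% and 15.2% applies to these counts. Of the calls named here, that of Sirt3 was lost in 16 of 22 fits that left out 1 library (all but P9 control 1 and P9 Isl1CKO 2, 3, 4, 5 or 6; adjusted p 0.0206 to 0.123 over the 22) and that of Tefm in 3 (E14.5 control 1 or 6, P9 control 1; up to 0.07).

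Between genotypes, 0.602% of all genes tested were called higher and 0.827% lower at E14.5, and 2.66% and 2.14% at P9. At E14.5, 1 of 11 biogenesis regulators and 2 of 11 carriers tested were called higher. Of 46 further assembly factors and subunits, 2 were called lower there. At P9, 1 of 12 biogenesis regulators was called higher and 1 of 13 coenzyme Q genes lower. For the difference of effects the shares over all genes were 1.23% higher and 0.851% lower. Esrrg, a nuclear receptor that regulates oxidative genes, was higher in Isl1CKO at both ages, by 1.72 ± 0.28 at E14.5 (edgeR adjusted p = 0.00633) and 2.58 ± 0.64 at P9 (0.0319), and it was the single biogenesis regulator called at either age. At E14.5 Ucp2 (0.55 ± 0.11) and Slc25a3 (0.30 ± 0.07) were higher, and the assembly factors Higd1a (-1.15 ± 0.15) and Uqcc1 (-0.48 ± 0.10) lower. At P9 Coq10a, a protein that binds coenzyme Q, was lower by -1.98 ± 0.43 (edgeR adjusted p = 0.0144). Lrpprc was the single gene of the lists whose effect differed between the ages, by 1.11 ± 0.24 (edgeR adjusted p = 0.0155), with -0.48 ± 0.15 at E14.5 and 0.63 ± 0.18 at P9, neither called on its own. Leaving out 1 of 11 libraries lost the E14.5 calls of Slc25a3 in 10 fits (all but control 1), Uqcc1 in 9 (all but control 2 and Isl1CKO 4) and Ucp2 in 1 (Isl1CKO 5), and the P9 call of Esrrg in 4 (control 1 or 3, Isl1CKO 4 or 6), with adjusted p of at most 0.0995.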

How the data were processed

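Pools of 100 sorted cells were sequenced in 22 libraries. Per the labels and the methods, the authors trimmed reads (cutadapt 1.18, Trimmomatic), removed ribosomal RNA (Bowtie 1.2.2, SortMeRNA), aligned to GRCm38.p6 with STAR 2.7.0c and counted unstranded, uniquely aligned reads per gene with Rsubread. The deposited values are raw counts per gene, 1 table per age (27124 and 27504 genes), with genes under 10 summed counts absent.

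Counts were tested with edgeR 4.0.16 (TMM, filterByExpr, quasi-likelihood, Benjamini-Hochberg over all genes, called at adjusted p under 0.05) in R 4.3.3, per age without covariates, and in a joint model of 4 groups over the 24296 shared genes for age and for the difference of effects. The age contrast in Isl1CKO and the left-out fits for genes of the other lists were added after seeing the data. DESeq2 1.42.0, scaling, filters, left-out libraries and a replicate block were alternatives. Levels are CPM of the TMM-scaled library. The code was tested on simulated data. Gene symbols, exons and 31-base windows came from GENCODE. Counting intervals are exact at 95%. Members and lists were chosen with earlier results of these data known. Named genes were the mitochondrial genes, Cycs, the Sdh genes, the isoforms, all called members per age, the 5 smallest p per direction for the other contrasts, and the highest member of each complex; 1 gene that the rule names is not reported here. Ndufc1, Ndufa12, Ndufs4, Cox7c, Uqcrh and Atp5l were described after their values were seen. Library depth ranged from 8477480 to 13581000 counts.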

Additional observations from a re-analysis of the deposited data

Results flagged for a closer look

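In 11 of 156 groups of libraries examined, 1 library stood apart from the rest of its group by Dixon's criterion, which chance gives in about 1 of 20 groups. E14.5 control 1 had the highest level of its group for Cox6b1 (400.0 CPM, next 335.8), Cox7b (261.8, next 208.3), Sdhb (317.6, next 244.1) and Cox7b2 (2.25, next 0.506), and the lowest for mt-Nd3 (3.44, next 6.05). P9 control 3 had the highest level for mt-Nd2 (1910 CPM, next 1568), mt-Nd4 (3471, next 2756) and mt-Nd3 (7.85, next 5.06). The remaining cases were mt-Co1 in E14.5 control 2 (1700.0 CPM, next 1504), Atp5g3 in P9 control 4 (312 CPM, next 257) and Cox6a2 in P9 Isl1CKO 1 (1.05 CPM, next 0.113).

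The Isl1CKO effect on Cox6a2 differed between the ages by -6.96 on the log2 scale in the joint edgeR model, a test that rests on 2 counts in E14.5 controls and 8 in E14.5 Isl1CKO.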

How the results depend on the processing

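The called log2 differences of named genes kept their direction under all alternatives except scaling to total counts, where 9 called age differences in controls turned negative (over all 90 nuclear members 3 were above 0, against 54 under TMM): mt-Nd1 -0.20, mt-Cytb -0.0935, Uqcr11 -0.68, Cox7a2l -0.34, Cox8a -0.95, Atp5g1 -0.67, Atp5k -0.16, Ndufaf8 -0.50 and Cycs -0.63. In Isl1CKO, Uqcr11 (-0.12), Ndufa4 (-0.20) and Atp5g1 (-0.0054) did so. Total-count scaling also gave, at P9, 72 nuclear and 7 mitochondrial members higher, and for the difference of effects 60 and 7 higher. For age in controls it gave 2 nuclear higher and 79 lower, with 4 mitochondrial higher and 1 lower. For age in Isl1CKO it gave 8 nuclear higher, 42 lower and 1 mitochondrial lower. The hormone genes enter this total, and their part in these counts was not tested. Totals without the 8 hormone genes gave 22 nuclear higher, 21 lower and 1 mitochondrial lower with age in Isl1CKO. DESeq2 called 2 nuclear members higher at E14.5, 6 higher and 2 lower at P9, 2 in each direction for the difference of effects, and 1 mitochondrial member lower with age in Isl1CKO. With no filter, 17 nuclear members were higher with age in controls, 16 lower in Isl1CKO, and 0 lower for the difference of effects; the stricter filter of 1.0 CPM left 0 lower at P9 and 0 for the difference, since Cox6a2 was then not tested. The cause of the other changes was not tested. Uncalled differences near 0 of mitochondrial genes between genotypes changed sign when 1 library was left out, as for mt-Nd1 at E14.5 (-0.0869 to 0.0475) and mt-Co1 at P9 (-0.11 to 0.0379).

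Leaving out 1 library at a time gave 0 to 1 nuclear members higher at E14.5, 0 to 9 higher and 0 to 1 lower at P9, 0 to 2 higher and 0 to 1 lower for the difference of effects, 21 to 29 higher and 12 to 14 lower with age in controls, 32 to 43 higher and 8 to 13 lower with age in Isl1CKO, and 7 mitochondrial members higher with age throughout. Without E14.5 Isl1CKO 3, 4 and 5, left out together for their macrophage transcripts, 0 nuclear members were called higher at E14.5, 0 lower for the difference of effects, and 16 higher and 5 lower with age in Isl1CKO. Same-numbered libraries did not deviate together (r from -0.052 to 0.056), so the numbers do not pair them; with a replicate block there were 0 nuclear members higher at E14.5, 0 lower at P9 and 0 lower for the difference of effects.

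With the hormone genes left out of the total, nuclear shares were 2.26% and 2.33% in E14.5 control and Isl1CKO and 2.32% and 2.40% at P9, and mitochondrial shares 3.81% and 3.62% at P9. Over protein-coding counts the nuclear shares were 2.30% and 2.42% at E14.5 and the mitochondrial share of E14.5 controls 1.77%. Depth limited Cox6a2 and Cox7b2, which had at most 85 and 32 counts in a library.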
